A study of Mus musculus with 2 samples.

Results

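The miR-30 family is described here in small RNA sequenced from J1, an embryonic stem cell line of mouse strain 129S4/SvJae. Its 6 hairpin genes, Mir30a, Mir30b, Mir30c-1, Mir30c-2, Mir30d and Mir30e, were taken by name from 1174 annotated miRNA hairpin genes, and a read was counted for a gene where its whole tag matched the hairpin exactly. One condition was 6 h with 1 µM SC1 (pluripotin, a compound that blocks RasGAP and ERK1 and helps embryonic stem cells to self-renew), and the other was 6 h with the same volume of DMSO. Both cultures held 1000 U/ml LIF and grew on gelatin with serum replacement according to the labels. With 1 library per condition, no value has a replicate error, and every interval is an exact 95% binomial (Clopper-Pearson) interval for counting error only.

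Tag lengths did not overlap between the lists, which ran over 3 to 17 nt for SC1 and 18 to 44 nt for DMSO. Levels are therefore not compared between SC1 and DMSO, and a missing length class is not a measured loss. The SC1 list held 1275599 reads, of which 1054495 had 15 to 17 nt, and the DMSO list held 18870345 reads, of which 16614432 had 18 to 26 nt. Of these, 53343 SC1 reads and 2177993 DMSO reads matched any miRNA hairpin. The miR-290-295 hairpins, which mark mouse embryonic stem cells, held 28.6% of the DMSO hairpin reads, and those of Mir302a to Mir302d and Mir367, also known from pluripotent cells, held 0.0132%. Marker hairpins of mesenchymal cells held 0.181%, those of liver 0.504%, of muscle 0.139% and of blood 0.0143%, with Mir214, Mir133b, Mir208a and Mir223 at 0 reads.

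A miRNA hairpin is cut by Drosha and then by Dicer into a duplex, and one strand, from the 5p or the 3p arm, is usually kept in Argonaute, where bases 2 to 8 (the seed) pair with target mRNAs. The miR-30 family is found across vertebrates and is known to repress Snai1, a regulator of the epithelial to mesenchymal transition. The Mir30a hairpin is also the backbone of many shRNA vectors. The 3′ ends of miRNAs can gain untemplated A or U from terminal nucleotidyl transferases, and U tails are written as T in sequencing reads.

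The RefSeq mature sequences are shown first because all family 5p arms share a seed while the 3p arms do not. Capitals mark the seed, and 4 of the 6 hairpin genes matched the RefSeq table (GRCm38.p6).
mmu-miR-30a-5p: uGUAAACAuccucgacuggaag
mmu-miR-30e-5p: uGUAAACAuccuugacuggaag
mmu-miR-30c-5p: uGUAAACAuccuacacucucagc
mmu-miR-30a-3p: cUUUCAGUcggauguuugcagc
mmu-miR-30e-3p: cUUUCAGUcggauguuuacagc
mmu-miR-30c-1-3p: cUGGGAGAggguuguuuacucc
mmu-miR-30c-2-3p: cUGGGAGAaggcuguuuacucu
The 5p seed GUAAACA was carried by 4 of 1679 mature names of that table, miR-30a-5p, miR-30c-5p, miR-30e-5p and miR-384-5p. The 3p arms of Mir30a and Mir30e differ by G18A alone, counted from 1 at the 5′ end of miR-30a-3p.

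The most abundant DMSO tag of each 5p arm shows where the members can be told apart. Capitals mark the positions, counted from 1 at the 5′ end, at which the 5 tags differ, and any base past position 22.
miR-30d-5p: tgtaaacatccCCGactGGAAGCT
miR-30a-5p: tgtaaacatccTCGactGGAAGC
miR-30e-5p: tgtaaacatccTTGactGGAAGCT
miR-30c-5p: tgtaaacatccTACactCTCAGCT
miR-30b-5p: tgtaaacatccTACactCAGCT
The first 11 bases were the same in all 5, and 8 of the first 22 positions differed. The seed read GTAAACA in each of these tags.

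The hairpins lie as 3 pairs on 3 chromosomes, in GRCm38 coordinates of the matched annotation. On chromosome 1, plus strand, Mir30a lies at 23272269 to 23272339 with no other gene annotated over it, and Mir30c-2 at 23291701 to 23291784 within an exon of the lincRNA Gm27028. On chromosome 15, minus strand, Mir30d lies at 68341208 to 68341289 within an exon of the lincRNA Gm20732, and Mir30b at 68337415 to 68337510, partly over an exon of Gm26621. On chromosome 4, minus strand, Mir30e lies at 120772606 to 120772697 and Mir30c-1 at 120769534 to 120769622, both in introns of Nfyc, which encodes a subunit of the transcription factor NF-Y. Mir30f is annotated on the opposite strand of Mir30e, and 0 reads of either list were antisense to a family hairpin in the lengths used.

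Among the short SC1 reads the family was almost absent. It had 4 of 53343 hairpin reads of 15 to 17 nt, 0.0075% (interval 0.00204 to 0.0192), in 3 distinct tags. Mir30e had 3 of them, all from its loop between the arms, starting at base 41 of the hairpin, and Mir30a had 1, from the 3p arm. No SC1 read of these lengths came from a family 5p arm, which allows up to 0.00562% of the SC1 hairpin reads. In the DMSO list the shortest lengths were also rare in the family, with 8 of 12450 5p reads at 18 nt and 11 at 19 nt. DMSO reads of 18 nt made up 0.193% of family reads and 1.71% of the reads of all hairpins, and DMSO reads of 15 to 17 nt were not in the list.

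In DMSO the family held 14001 reads of 18 to 26 nt in 109 tags, 0.643% of the hairpin reads (interval 0.632 to 0.654). Tags of 1 member held 13415 reads (95.8%), tags shared by Mir30c-1 and Mir30c-2 held 584 (4.17%), and 1 tag shared by those and Mir30b held 2. No family tag matched a hairpin outside the family, and reversed tags gave 0 reads. Levels are given as RPM, reads per 1000000 reads that matched any miRNA hairpin.

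Mir30d led the family. Its 5p arm had 6230 reads, 2860 RPM (interval 2790 to 2932) and 44.5% of family reads. miR-30a-5p followed with 4225 reads, 1940 RPM (interval 1882 to 1999). miR-30e-5p had 1336 reads, 613 RPM (interval 581 to 647). The intervals of these 3 arms did not overlap. The 5p arm shared by both Mir30c hairpins had 584 reads, 268 RPM (interval 247 to 291), and miR-30b-5p had 73 reads, 33.5 RPM (interval 26.3 to 42.1), the lowest of the 5p arms. Among 474 mature arms with a tag of 10 reads or more, miR-30d-5p ranked 50, between miR-295-5p at 3019 RPM and miR-99b-5p at 2841 RPM, the last within the interval of miR-30d-5p. The order of Mir30d and Mir30a depended on the lengths counted: with 21 to 23 nt alone, Mir30a held 48.7% of family reads and Mir30d 27.5%.

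**Figure D1:**
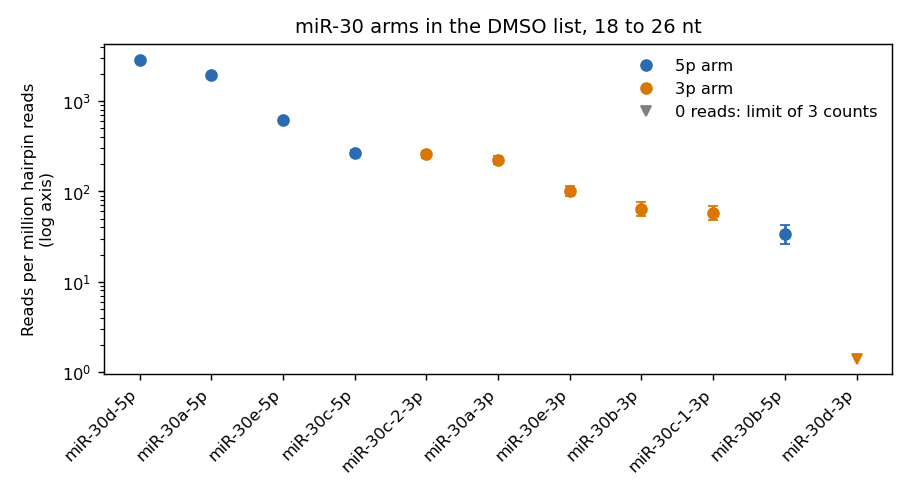
Level of each miR-30 arm in the DMSO list, in RPM on a log axis, with exact 95% intervals for counting error (1 library). The arms run from miR-30d-5p at 2860 RPM to miR-30b-5p at 33.5 RPM, and miR-30d-3p, with 0 reads, is drawn at the limit of 3 counts, 1.38 RPM.

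The 3p arms had another order, and all that were detected lay above miR-30b-5p. miR-30c-2-3p had 562 reads, 258 RPM (interval 237 to 280), and miR-30a-3p 487 reads, 224 RPM (interval 204 to 244). These neighbours overlapped in their intervals, as did miR-30c-5p and miR-30c-2-3p. miR-30e-3p had 222 reads, 102 RPM (interval 89 to 116). miR-30b-3p, with 140 reads, 64.3 RPM, and miR-30c-1-3p, with 127 reads, 58.3 RPM, again had overlapping intervals. miR-30d-3p had 0 reads. This order is that of exact reads. With reads tailed by A or T added, miR-30a-3p (749 reads) lay above miR-30c-2-3p (573 reads).

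In tags of 1 member, neighbouring hairpins were far apart in total reads. Mir30d had 6230 reads against 213 for Mir30b, 3697 bases away, a ratio of 29.2. On the 3p arm alone this pair ran the other way, with 0 reads for Mir30d and 140 for Mir30b. Mir30e had 1570 reads of its own against 128 for Mir30c-1, 2983 bases away in the same host gene, and Mir30a had 4712 against 562 for Mir30c-2, 19361 bases away. For the Mir30c hairpins 586 reads are in shared 5p tags and cannot be placed, so their 3p arms were set beside those of their neighbours. There the ratio of exact reads was 1.75 for Mir30e to Mir30c-1 and 0.867 for Mir30a to Mir30c-2. Exact reads leave out those with an untemplated 3′ tail. With reads tailed by A or T added, miR-30a-3p had 749 reads against 573 for miR-30c-2-3p, so the order of this pair was reversed. For miR-30e-3p and miR-30c-1-3p the counts were then 420 and 131.

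Members differed in which arm gave more reads. Of the exact reads of both arms, the 3p arm held 10.3% in Mir30a (interval 9.48 to 11.2), a 5p to 3p ratio of 8.68. In Mir30e it held 14.2% (interval 12.5 to 16.1), a ratio of 6.02. These intervals did not overlap. Exact reads leave out tailed reads. Tails of A or T took 35% of miR-30a-3p and 47.1% of miR-30e-3p reads, against 3.49% and 10.2% of their 5p arms. With tailed reads added, the 3p shares were 14.6% in Mir30a and 22% in Mir30e. In Mir30b the 3p arm held 140 of 213 reads, 65.7% (interval 58.9 to 72.1), so its 3p arm had more reads than its 5p arm. Over both Mir30c hairpins together, 689 exact reads were 3p and 584 were 5p, a 3p share of 54.1% (interval 51.3 to 56.9). With reads tailed by A or T added, miR-30c-5p had 716 reads, miR-30c-1-3p 131 and miR-30c-2-3p 573. The 3p arms then no longer had more reads than the 5p arm. For each Mir30c hairpin alone, the shared exact reads leave a wide range of 3p shares. It runs from 17.8% for Mir30c-1 and 49% for Mir30c-2, if all shared 5p reads were its own, up to 100%.

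Mir30d was the other extreme. None of its 6230 reads was 3p, and 3 counts would allow a share of up to 0.0482%. No DMSO read of any length shared a run of 14 bases with the 3′ side of its hairpin, so shifted, tailed or mismatched forms of the arm that keep such a run were not found either.

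**Figure D2:**
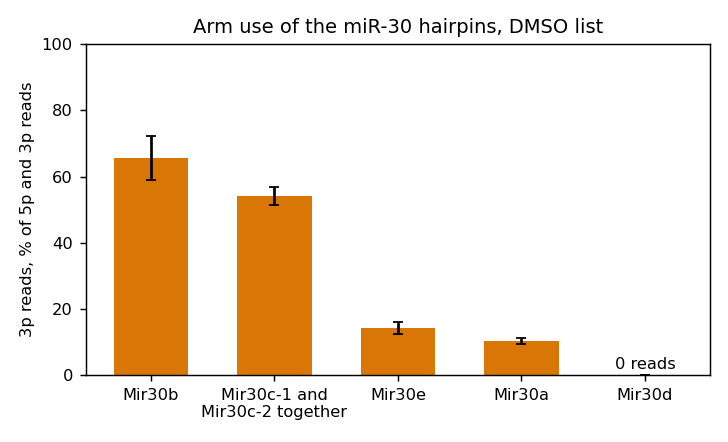
Share of 3p reads among the exact 5p and 3p reads of each hairpin in the DMSO list, with exact 95% intervals. Tailed reads are left out, and with them the share was 22% in Mir30e and 14.6% in Mir30a. Mir30b (65.7%) and both Mir30c hairpins together (54.1%) stand above Mir30e (14.2%), Mir30a (10.3%) and Mir30d (0).

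The most abundant tag of each 3p arm is shown because these arms fall into different seed groups; capitals mark bases 2 to 8.
miR-30a-3p: cTTTCAGTcggatgtttgcagc
miR-30e-3p: cTTTCAGTcggatgtttacagc
miR-30b-3p: cTGGGATGtggatgtttacgtc
miR-30c-2-3p: cTGGGAGAaggctgtttactc
miR-30c-1-3p: cTGGGAGAgggttgtttact
Mir30a and Mir30e shared TTTCAGT, and both Mir30c hairpins shared TGGGAGA. Mir30b had TGGGATG.

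Family 5p reads were mostly of 23 or 24 nt. Lengths of 23 nt or more took 90.5% of them, and 24 nt alone took 62%. Templated base 24 is T in the a, c, d and e members, so exact 24 nt reads can include 23 nt forms with a T tail. Among all hairpin reads the most frequent length was 22 nt, with 46.1%, and 24 nt took 8.49%. RefSeq gives 22 nt for miR-30a-5p and miR-30e-5p, in which 86.1% and 95% of reads had 23 nt or more, and 23 nt for miR-30c-5p. miR-30d-5p had 73.5% of its reads at 24 nt and 19.6% at 23 nt. For miR-30e-5p these shares were 68.2% and 25.2%, and for miR-30c-5p 79.1% and 14.9%. miR-30a-5p was split, with overlapping intervals, between 44.1% at 23 nt (interval 42.6 to 45.6) and 41.9% at 24 nt (interval 40.4 to 43.4), and a further 12.2% at 22 nt. In miR-30b-5p 63 of 73 reads had 22 nt, and none had 23 nt or more.

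Set beside 300 arms of other miRNAs with 100 reads or more, the 4 longer 5p arms were near the top in length. The share of reads at 23 nt or more was higher than in miR-30e-5p in 4 of those arms, in miR-30d-5p and miR-30c-5p in 5 each, and in miR-30a-5p in 16. Over 309 such arms, family members included, its median was 6.82%. In the 5p arms of let-7 and of miR-26, families that like miR-30 come from several loci, 4.34% and 0.471% of reads had 23 nt or more, and 22 nt was the most frequent length. Pooled over the 5p reads of all hairpins, where abundant arms weigh most, the share was 45.7%.

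**Figure D3:**
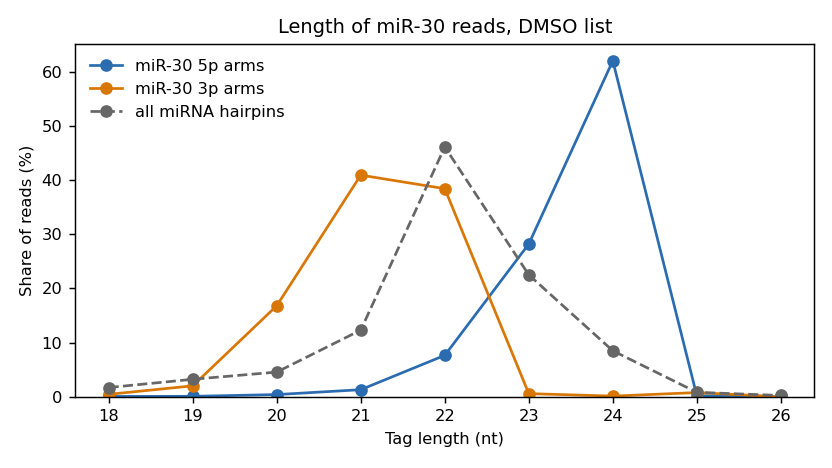
Share of exact reads, without tailed reads, at each tag length (nt) in the DMSO list. Lines show the miR-30 5p arms, the miR-30 3p arms and all miRNA hairpins. The 5p arms peak at 24 nt (62%), the 3p arms at 21 nt (40.9%) and all hairpins at 22 nt (46.1%).

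The 3p arms were shorter, most frequent in exact reads at 21 nt (40.9%, 629 reads) and 22 nt (38.4%, 590 reads). Tailed reads are left out, among them T-tailed tags of 22 nt with 95 reads for miR-30a-3p and 101 for miR-30e-3p. The order of 21 and 22 nt with tailed reads added was not tested. miR-30e-3p had 62.2% of its reads at the annotated 22 nt. miR-30c-2-3p was most frequent at 21 nt (49.8%) and miR-30c-1-3p at 20 nt (42.5%), both below their annotated 22 nt.

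The 5′ start, which sets the seed, was fixed in the 5p arms and loose in some 3p arms. Of all 5p reads 99% began at the mature start, from 96.5% in miR-30e-5p to 100% in miR-30b-5p; for Mir30b and Mir30d the start is that of the most abundant tag. In miR-30a-3p only 59.5% of reads began at the RefSeq start (interval 55 to 63.9), and 38.2% began 1 base later (interval 33.9 to 42.7). The same later start took 12.2% of miR-30e-3p (interval 8.17 to 17.2), 15.3% of miR-30c-2-3p, 10.2% of miR-30c-1-3p and 2.86% of miR-30b-3p. The interval of miR-30a-3p lay above those of the other 3p arms. A start 1 base later changes bases 2 to 8, as its most abundant tag, with 131 reads, shows (seed in capitals).
miR-30a-3p, 1 base later: tTTCAGTCggatgtttgcagc

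Reads with untemplated A or T at the 3′ end were counted where a templated part of 18 nt or more was followed by 1 to 3 bases of A only or T only. The whole tag had 26 nt or fewer, which left less room for tails on the longer 5p forms than on the 3p forms. In longer tags too, family tails of 3 nt had 15 reads for A in place of 2, and 17 for T in place of 9. Within 26 nt, tailed reads made up 6.32% of the 5p reads (interval 5.91 to 6.75) and 24.5% of the 3p reads (interval 22.7 to 26.5). Tails of C or G, counted the same way, made up 0.323% and 0.245%. For comparison, tails of A or T took 5.06% of let-7 5p reads and 12.2% of miR-26 5p reads, and over the 309 arms with 100 reads or more their median share was 6%.

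A and T tails were spread unevenly over the members. T tails were most frequent on the 3p arms of Mir30a, with 235 of 749 reads, 31.4% (interval 28.1 to 34.8), and Mir30e, with 133 of 420, 31.7% (interval 27.2 to 36.4). miR-30b-3p followed with 14.5% (interval 9.55 to 20.9), while miR-30c-1-3p had 1.53% and miR-30c-2-3p 0.873%. Of the 300 other arms 14 had a higher T share than miR-30a-3p, and 14 a higher one than miR-30e-3p. A tails were most frequent on miR-30e-3p, at 15.5% (interval 12.2 to 19.3), and on miR-30c-5p, at 14.5% (interval 12 to 17.3). miR-30b-5p had 10 A tails in 84 reads, 11.9%, with a wide interval of 5.86 to 20.8. The 3 most abundant 5p arms were lower in A tails, at 3.34% in miR-30d-5p, 3.3% in miR-30e-5p and 2.63% in miR-30a-5p. They differed in T tails, with 6.86% in miR-30e-5p (interval 5.63 to 8.27), 2.6% in miR-30d-5p (interval 2.23 to 3.01) and 0.868% in miR-30a-5p (interval 0.615 to 1.19).

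**Figure D4:**
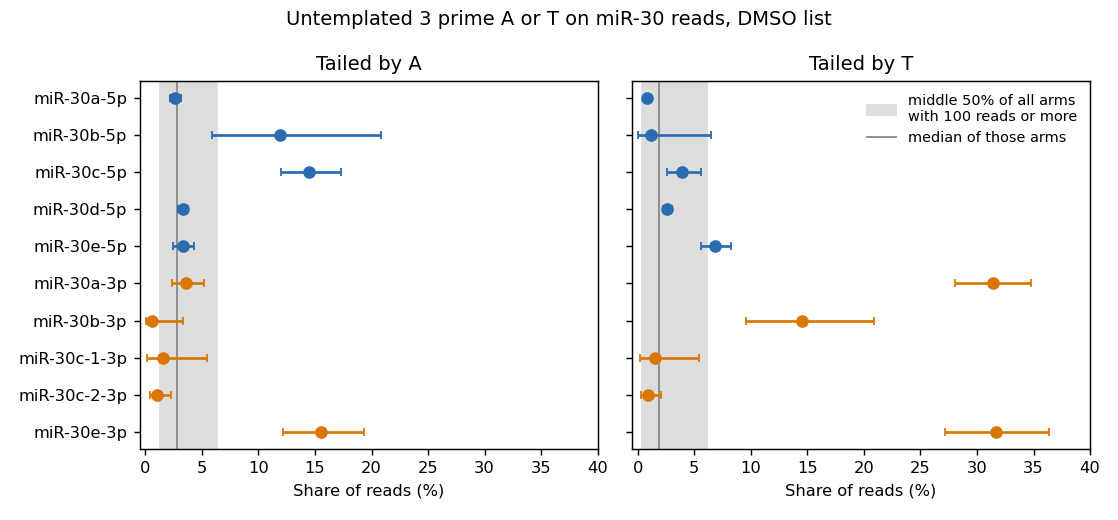
Share of reads with an untemplated 3′ tail of A (left) or T (right) on each miR-30 arm of the DMSO list, with exact 95% intervals, with 5p arms in blue and 3p arms in orange, beside the median and the middle 50% of all arms with 100 reads or more. T tails stand out on miR-30a-3p (31.4%) and miR-30e-3p (31.7%), and A tails on miR-30e-3p (15.5%) and miR-30c-5p (14.5%).

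Tail shares differed between the templated ends. In miR-30a-3p, 213 of 349 reads whose templated part ended at base 21 carried T, 61% (interval 55.7 to 66.2). In miR-30e-3p it was 117 of 158, 74.1% (interval 66.5 to 80.7). T was also frequent after base 20 of miR-30a-3p, on 21 of 31 reads, 67.7% (interval 48.6 to 83.3). After base 20 of miR-30e-3p it was on 3 of 14 reads. At base 22, the annotated end, miR-30e-3p carried T in 4.92% and A in 25.4% (interval 20.1 to 31.4), and miR-30a-3p carried A in 5.93%. The most abundant tailed tags of these arms end as follows, with the tail in capitals.
miR-30a-3p with T, 95 reads: ctttcagtcggatgtttgcagT
miR-30e-3p with T, 101 reads: ctttcagtcggatgtttacagT
miR-30e-3p with A, 44 reads: ctttcagtcggatgtttacagcA
The templated base after base 21 is C in both arms, so a T there could also be a single substitution at the last base, which was not tested. Tails of A at the same place had 4 reads in miR-30a-3p and 2 in miR-30e-3p, and tails of G had 0 in both. These counts do not give the rate at which C is read as T. The next templated base is T after base 22 of miR-30a-3p and miR-30c-1-3p and after base 21 of miR-30c-2-3p. T tails on those ends cannot be seen. After base 22 of miR-30b-3p the next templated base is A, so A tails on that end cannot be seen.

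**Figure D5:**
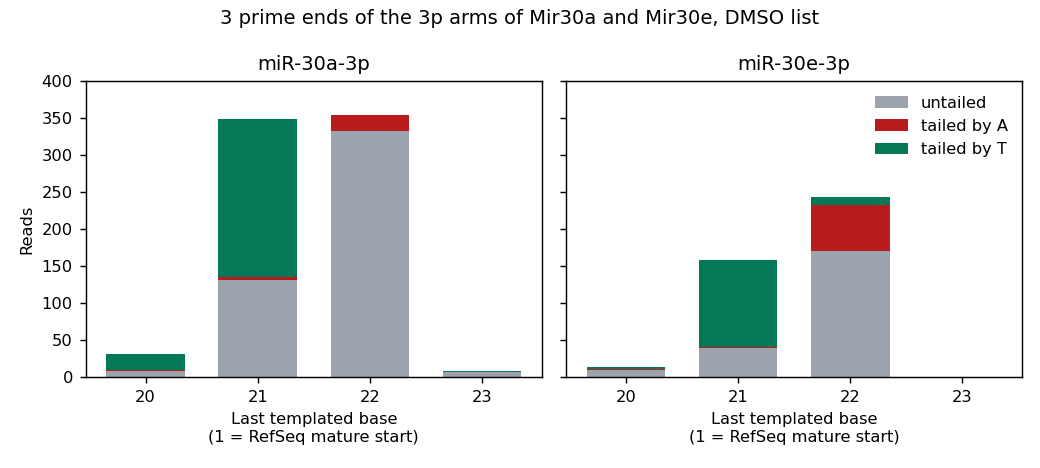
Reads of miR-30a-3p and miR-30e-3p in the DMSO list by the last templated base, counted from the RefSeq mature start, divided into untailed reads and reads tailed by A or by T. Most T-tailed reads end after base 21 (213 reads of miR-30a-3p and 117 of miR-30e-3p), and tails of A after base 22 in miR-30e-3p (25.4%).

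In the 5p arms the base that follows base 23 is itself T in the a, c, d and e members, so a T tail on the 23 nt form cannot be told from the templated 24 nt form, and T tails are lower limits there. After base 24, miR-30e-5p carried T in 101 of 1060 reads, 9.53% (interval 7.83 to 11.5), miR-30d-5p in 167 of 4869, 3.43% (interval 2.94 to 3.98), and miR-30a-5p in 36 of 1885, 1.91% (interval 1.34 to 2.63). Tails of A took a larger share at shorter ends in miR-30d-5p, with 2.38% after base 24, 4.02% after base 23 and 11.6% after base 22. In miR-30e-5p they were 2.08%, 5.26% and 11.1% at these ends, the last from 6 of 54 reads. In miR-30c-5p they were 9.41% after base 24, 34.1% after base 23 and 30% after base 22, the last from 6 of 20 reads. In miR-30a-5p they were 2.33%, 2.06% and 4.21% at the same 3 ends.
miR-30d-5p with T, 150 reads: tgtaaacatccccgactggaagctT
miR-30e-5p with T, 91 reads: tgtaaacatccttgactggaagctT
miR-30c-5p with A, 43 reads: tgtaaacatcctacactctcagctA

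Since the leading 5p arms differ by single bases, misread tags could move reads between them, and reads with 1 substitution in the first 21 bases were counted. Against miR-30d-5p, tags with C12T, which spell miR-30a-5p, had 4089 reads beside 6091 unchanged. The other 62 possible substitutions of miR-30d-5p had 30 reads in all, and the most frequent, C10T, had 5. Against miR-30a-5p, C13T, which spells miR-30e-5p, had 1265 reads beside 4089 unchanged, and the other substitutions that spell no member had 44 in all, at most 8 for C10T (0.196%). Counts of other substitutions do not give the rate of misreading for C12T or C13T themselves, so movement of reads between these members was not tested.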

How the data were processed

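The authors deposited 1 list of distinct tags per library, with raw read counts that were not normalized. The submitters' processing notes name mm9. How adapters, lengths and alignment were handled is not given in the sources used. The DMSO list's closing total line was left out. Hairpins of GENCODE M21 (GRCm38) were matched exactly and in sense, in DMSO tags of 18 to 26 nt and SC1 tags of 15 to 17 nt. A tag belonged to an arm where most of its length lay in the RefSeq mature sequence or, for Mir30b, Mir30d and other miRNAs, in the arm's most abundant tag. For 0 reads, 3 counts served as the upper limit. No molecular identifiers were present in the lists, so reads are not independent molecules, and counts of different sequences also depend on library preparation, which was not measured. The matching and tailing steps were tested on simulated data. All 6 members and their arms are named. Members, lists, measures and comparisons were chosen with earlier results of these data known. Alternatives were other lengths, minimum reads, places, sharing rules and tail rules. Intervals came from scipy 1.17.1, figures from matplotlib 3.10.9, and tags were handled in Python 3.11.15 with numpy 2.4.6.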

Additional observations from a re-analysis of the deposited data

Results flagged for a closer look

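In the DMSO list 295 reads carried a 3′ tail made of both A and T after a miR-30 part of 18 nt or more, a class that the counts of A-only and T-only tails leave out. miR-30d-5p had 162 of them, miR-30c-5p 40, miR-30e-5p 39, miR-30a-5p 33 and miR-30a-3p 17. Of the 662 reads with an untemplated 3′ end of 2 to 6 nt, these were 44.6%, while A alone took 21.1%, T alone 18.7% and ends with C or G 15.6%.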

How the results depend on the processing

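No paired analysis was possible because SC1 and DMSO had 1 library each. Of 48 values of the main results recomputed under alternatives, 26 stayed within the main counting interval and 22 moved beyond it; the cause was not tested except where the setting itself fixes the value. The DMSO family share (0.643%) was 0.678% at 20 to 24 nt, 0.332% at 21 to 23 nt, 1.66% by distinct tags and 0.0742% of all reads of the list. It was 0.711% with 1 mismatch allowed for the family alone, which can only raise it, and 0.601% with 1 mismatch allowed for all hairpins, a setting chosen after seeing the data. The Mir30d share (44.5%) was 27.5% at 21 to 23 nt, which leaves out its 24 nt form, and 53.4% with only the most abundant tags. The 3p share of Mir30a (10.3%) was 14.8% at 21 to 23 nt and 14.6% with tailed reads added, and that of Mir30e (14.2%) 33.9% and 22%. The share of 5p reads of 23 nt or more (90.5%) was 42.6% by distinct tags, and that at the mature start (99%) was 63% by distinct tags and 99.4% with tags of 10 reads or more. Tailing by A or T of the whole family (8.74%) was 7.4% with tags of 10 reads or more, 7.36% with tails of 1 nt, 50.5% by distinct tags and 10.6% with tails of any length and mixed bases, a setting chosen after seeing the data. The SC1 share (0.0075%) was 0 with tags of 10 reads or more, 0 at the start of an arm only and 0.384% by distinct tags. Of 66 values of single members and arms, 20 moved. Mir30b kept more 3p than 5p reads under all 7 alternatives run, from 60.9% to 68%. For Mir30d all but 1 of these only select or share out the same exact tags, so its 0 3p reads could not change. Adding tailed reads could have changed it, and gave 0 3p reads of 6623. With 4 SC1 reads, depth allows no order among members there.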

Other observations

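The loop of Mir30e gave reads in both lists. The SC1 list held 2 reads of bases 41 to 56 of the hairpin and 1 of bases 41 to 57, and the DMSO list 12 reads of bases 41 to 58, all with the same start. The only other family tag outside the arms was 1 DMSO read of 25 nt from Mir30c-1. Exact family tags longer than 26 nt had 3 DMSO reads. The DMSO tag of the Mir30e loop read as follows.
Mir30e loop: gtaaggtgttgagaggag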
